A study of Mus musculus with 24 samples.

Results

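The peaks on the mitochondrial chromosome were all entries of the 16 deposited peak lists whose chromosome was named M. They numbered 240 of 576562 peaks, 115 of 224437 in the 8 Sox9 lists and 125 of 352125 in the 8 H3K4me3 lists, and every list held some. The lists came from CUT&RUN, in which an antibody tethers a nuclease that cuts out the DNA beside its target. The cells were kidney Sox9-lineage cells, sorted as tdTomato-positive from male mice 9 to 12 weeks old that had undergone ischaemia-reperfusion injury of both kidneys. All animals carried Sox9IRES-CreERT2/+:R26RtdT/+ and received tamoxifen when the injury was made, so that every group shared genotype, injury and drug, and the label marks cells in which the Sox9 locus drove the recombinase. Cells were collected at 10 days or at 48 h after injury, with 4 biological replicates a time. Each pellet, of about 100000 cells fixed in 0.2% PFA, was split into 3 aliquots for Sox9, for H3K4me3 as the positive control, and for input. The 4 groups were therefore Sox9 at 10 days, Sox9 at 48 h, H3K4me3 at 10 days and H3K4me3 at 48 h, with 4 lists each. No uninjured animals and no control antibody were among these lists, and the 8 input libraries were not analysed here beyond their use by the peak caller. The cell type label of every sample reads day 10, also in samples titled 48h, so the times were taken from the titles. Peak lists carry no expression values, and the identity of the sorted cells was not checked against marker genes.

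Mitochondrial DNA is a small circle, present in many copies in each cell. It has no histones and is packaged by TFAM, a high mobility group protein that also starts its transcription. It carries 37 genes: 13 for subunits of the respiratory chain and ATP synthase, 2 for the RNAs of the mitochondrial ribosome and 22 for transfer RNAs. The control region, a stretch without genes, holds the promoters and the origin of heavy strand replication, and both strands are transcribed nearly round the circle as long precursors. H3K4me3 is a histone mark of active nuclear promoters, and SOX9 is a nuclear transcription factor that returns in the tubular epithelium of the injured kidney.

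The lists differed in size before any mitochondrial peak was counted. They held 7724 to 88511 peaks, and both lists of replicate 1 at 10 days were longer than all others. For Sox9 that list held 85420 peaks, against 14800 to 39711 in the other Sox9 lists of that time. For H3K4me3 it stood less apart, with 88511 peaks against 30947 to 74382. No source used here gives numbers of reads, so the depth behind a peak is unknown. Coordinates are those of mm10, and genes are those of the RefSeq annotation of GRCm38.p6. The highest peak end, base 16285, stood in for the end of the chromosome, so percentages of the chromosome are over 16285 bases.

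Mitochondrial peaks were few in every list but covered much of the circle. The Sox9 lists at 10 days held 5, 7, 14 and 20 of them, and those at 48 h held 18, 17, 13 and 21. The H3K4me3 lists held 15, 11, 14 and 21 at 10 days, and 19, 22, 10 and 13 at 48 h. The ranges overlapped between times for both antibodies. The lowest counts were in Sox9 replicates 1 and 2 at 10 days, but the 5 peaks of replicate 1 covered 83.8% of the chromosome and the 7 peaks of replicate 2 covered 11.3%. A count of peaks is thus not a measure of how much of the chromosome was called.

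**Figure D1:**
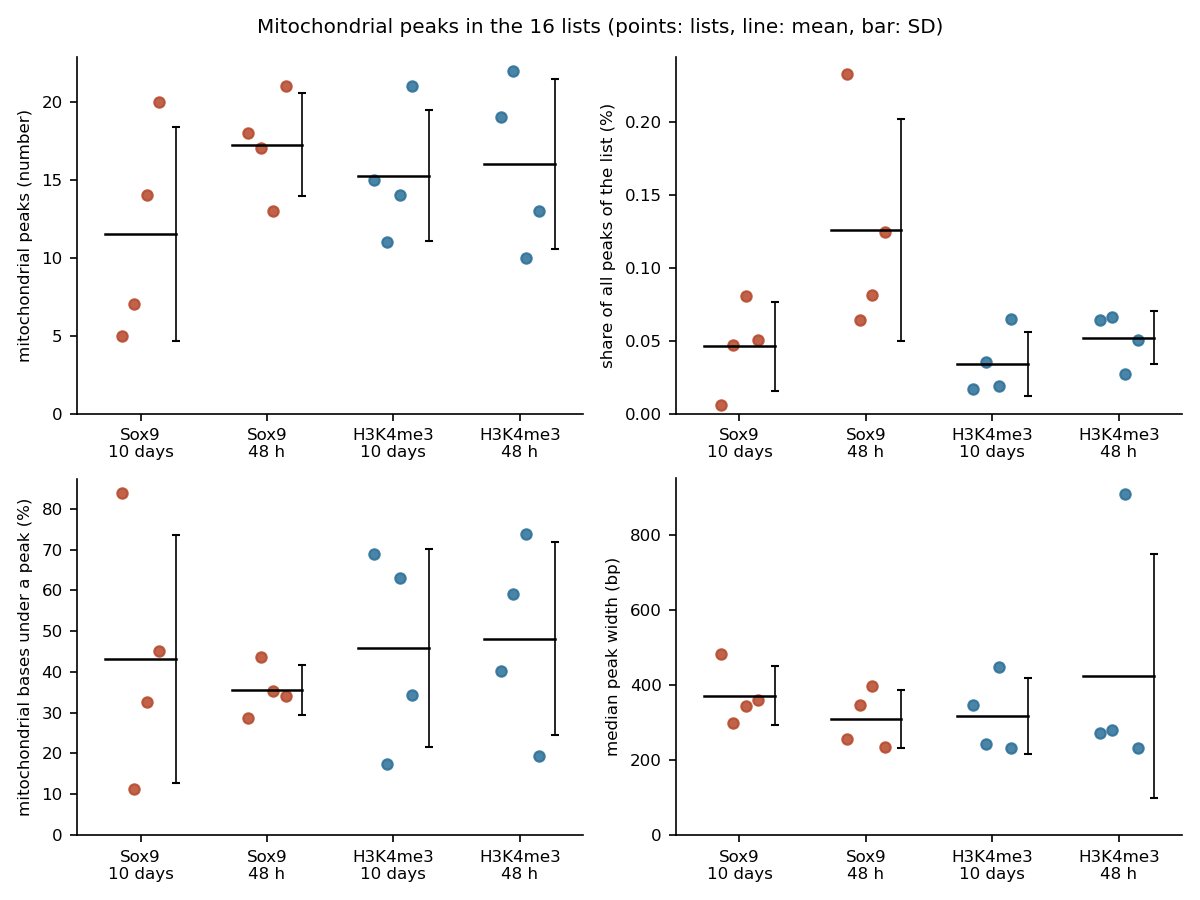
Number of mitochondrial peaks, their share of all peaks of the list in percent, percent of mitochondrial bases under a peak and median peak width in bp, for the 4 lists of each group (points), with the mean (line) and SD (bar). The groups overlap in all 4 panels, and Sox9 replicate 1 at 10 days combines the lowest count, 5, with the highest coverage, 83.8%.

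The percentage of the chromosome under a peak was 83.8, 11.3, 32.6 and 45.2% in the Sox9 lists at 10 days, and 28.7, 43.6, 35.3 and 34.2% in those at 48 h. In the H3K4me3 lists it was 69.0, 17.3, 63.1 and 34.3% at 10 days, and 40.3, 59.1, 73.9 and 19.3% at 48 h. The groups overlapped, and the lowest and highest values of all lists both came from Sox9 at 10 days. For Sox9 it averaged 43.2 ± 30.5% at 10 days and 35.4 ± 6.14% at 48 h (SD, n = 4 each), a difference of 7.77 percentage points (two-sided exact permutation p = 0.714, adjusted p = 0.943 over the 12 tests of this kind). Without Sox9 replicate 1 at 10 days that difference was -5.76 points, so that 1 list set its direction. For H3K4me3 it averaged 45.9 ± 24.3% at 10 days and 48.1 ± 23.6% at 48 h, which differed by less than the spread (exact permutation p = 0.857). Across both times the Sox9 lists averaged 39.3 ± 20.8% and the H3K4me3 lists 47.0 ± 22.2% (SD, n = 8 each; exact permutation p = 0.482). That test, like the others between antibodies below, did not pair the aliquots of a pellet. Paired by pellet, exact sign flips gave p = 0.305 for coverage.

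The number of peaks gave no call either. On the scale of log2(count + 1) the Sox9 lists at 10 days differed from those at 48 h by -0.70 (exact permutation p = 0.229, adjusted p = 0.754), and -0.40 without replicate 1 at 10 days. The H3K4me3 difference between 10 days and 48 h was -0.04 (exact permutation p = 0.943), and Sox9 against H3K4me3 gave -0.19 (exact permutation p = 0.518). With 4 lists against 4 the smallest p that the exact test can give is 0.0286.

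As a share of all peaks of a list, the mitochondrial peaks made up 0.00585, 0.0473, 0.0805 and 0.0504% in Sox9 lists at 10 days, and 0.233, 0.0641, 0.0813 and 0.125% in Sox9 lists at 48 h. In H3K4me3 lists the share was 0.0169, 0.0355, 0.0188 and 0.0648% at 10 days, and 0.0643, 0.0660, 0.0269 and 0.0503% at 48 h. The highest share, in Sox9 replicate 1 at 48 h, was in the shortest list, of 7724 peaks, and the lowest, in Sox9 replicate 1 at 10 days, was in a list of 85420. The Sox9 means were 0.0460 ± 0.0307% at 10 days and 0.126 ± 0.0759% at 48 h (exact permutation p = 0.0571, adjusted p = 0.522), and the difference of -0.0797 points was -0.0440 without replicate 1 at 48 h. The H3K4me3 means were 0.0340 ± 0.0222% at 10 days and 0.0519 ± 0.0181% at 48 h (exact permutation p = 0.286). Over both times the share averaged 0.0859 ± 0.0685% in Sox9 lists and 0.0430 ± 0.0210% in H3K4me3 lists (SD, n = 8 each; exact permutation p = 0.0870, adjusted p = 0.522). Without Sox9 replicate 1 at 48 h the difference of 0.0429 points between the antibodies was 0.0219 points. None of the 12 tests of count, share, coverage and width passed an adjusted p of 0.05. The difference between antibodies was also compared between the times within pellets, for these 4 measures, with exact permutation p of 0.171 to 0.486.

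Where the peaks lay along the circle was uneven, and both antibodies left the same gap. Protein genes take up 69.6% of the bases and held 201 of the 240 summits, or 83.8%. The 2 ribosomal RNA genes take up 15.6% of the bases and held 5 summits, or 2.08%. The control region, at 5.30% of the bases, held 15 summits or 6.25%, and the transfer RNA genes, at 9.19% of the bases, held 19 or 7.92%. Averaged over the 16 lists, peaks covered 52.1 ± 24.6% of the protein genes, 48.0 ± 28.4% of the control region, 41.7 ± 26.6% of the transfer RNA genes and 3.03 ± 4.90% of the ribosomal RNA genes (SD, n = 16). The ribosomal RNA genes were covered less than the protein genes in 16 of 16 lists, and less than the control region in 15 of 16.

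No list had a peak on 1915 bases, or 11.8% of the chromosome. Nearly all of them lay in 2 stretches, M:149-852 of 704 bases inside mt-Rnr1, which encodes the RNA of the small ribosomal subunit, and M:1373-2579 of 1207 bases inside mt-Rnr2, which encodes that of the large subunit. mt-Rnr1 (M:70-1024) had a peak in 6 lists and mt-Rnr2 (M:1094-2675) in 8, but neither was covered to 50% in any. Their summits were in Sox9 replicates 1 and 4 at 10 days and H3K4me3 replicates 2 and 3 at 48 h. The junction of the genes, around the valine transfer RNA gene TrnV between them, lay in the merged region M:853-1372, with a peak in 5 lists. The highest coverage of mt-Rnr1, 26.3%, was in Sox9 replicate 1 at 10 days, and that of mt-Rnr2, 21.9%, in H3K4me3 replicate 1 at 10 days, both from the pellet with the longest lists. None of the 4 Sox9 lists at 48 h had a peak on either gene. How the authors' mapping treated reads from these genes is not given in the sources used here, and its part in the gap was not tested.

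The control region (M:15423-16285 as used here) had a peak in 15 of 16 lists. It was covered to 100, 34.5, 33.1 and 21.1% in Sox9 lists at 10 days, and to 34.99, 82.5, 21.8 and 28.4% in those at 48 h. A peak of Sox9 replicate 1 at 10 days set the end of the region, so the 100% of that list follows in part from the definition. In H3K4me3 lists the values were 70.3, 19.2, 73.6 and 55.5% at 10 days, and 56.7, 50.6, 85.3 and 0% at 48 h. Its coverage was thus of the order of that of the protein genes, below it in 11 of 16 lists and above it in the rest.

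Genes of complex I, the NADH dehydrogenase at the entry of the respiratory chain, were among the most and the least often called. ND1 (M:2751-3707), ND4 (M:10167-11544) and ND5 (M:11742-13565) had a peak in 16 of 16 lists, and ND2 (M:3914-4951) in 15. ND5, the longest gene, was covered to 59.7 ± 25.3% over the Sox9 lists and 65.0 ± 30.4% over the H3K4me3 lists (SD, n = 8 each). ND1 was covered to 48.8 ± 29.4% in Sox9 lists and 63.5 ± 26.3% in H3K4me3 lists, and ND4 to 42.6 ± 18.1% in Sox9 lists and 44.4 ± 24.4% in H3K4me3 lists. The shorter ND4L (M:9877-10173) had a peak in 10 lists and ND3 (M:9459-9806) in 6, at 7.33 ± 19.4% of its bases in Sox9 lists and 18.1 ± 34.7% in H3K4me3 lists. ND6 (M:13552-14070), the only protein gene read from the other strand, had a peak in 7 of 8 Sox9 lists and 4 of 8 H3K4me3 lists. That difference between antibodies was noticed among many features and was not tested.

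COX1, COX2 and COX3 encode the catalytic core of cytochrome c oxidase. COX1 (M:5328-6872) had a peak in 15 lists, all but Sox9 replicate 2 at 10 days. It was covered to 47.2 ± 28.7% in Sox9 lists and 75.1 ± 22.2% in H3K4me3 lists. Single lists overlapped, at 0 to 100% for Sox9 and 47.1 to 100% for H3K4me3, and this difference among many features was not tested. COX2 (M:7013-7696) had a peak in 13 lists and COX3 (M:8607-9390) in 14. The ATP synthase genes ATP6 (M:7927-8607) and ATP8 (M:7766-7969), which overlap, had one in 13 and 9 lists. CYTB (M:14145-15288), which encodes cytochrome b of complex III, had one in 14, at 59.8 ± 34.3% of its bases in Sox9 lists and 59.4 ± 36.9% in H3K4me3 lists. The 22 transfer RNA genes, which lie between these genes, had a peak in 3 to 13 lists each. A short gene can be missed by peaks that a long gene would catch, so these counts are not comparable between genes of different length. When a gene was counted only if 50% of it was covered, CYTB was in 12 lists, and ND5 and COX1 in 11 each. ND2, COX3 and ND6 were then in 9 lists each, ND1 in 8 and ND4 in 7.

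**Figure D2:**
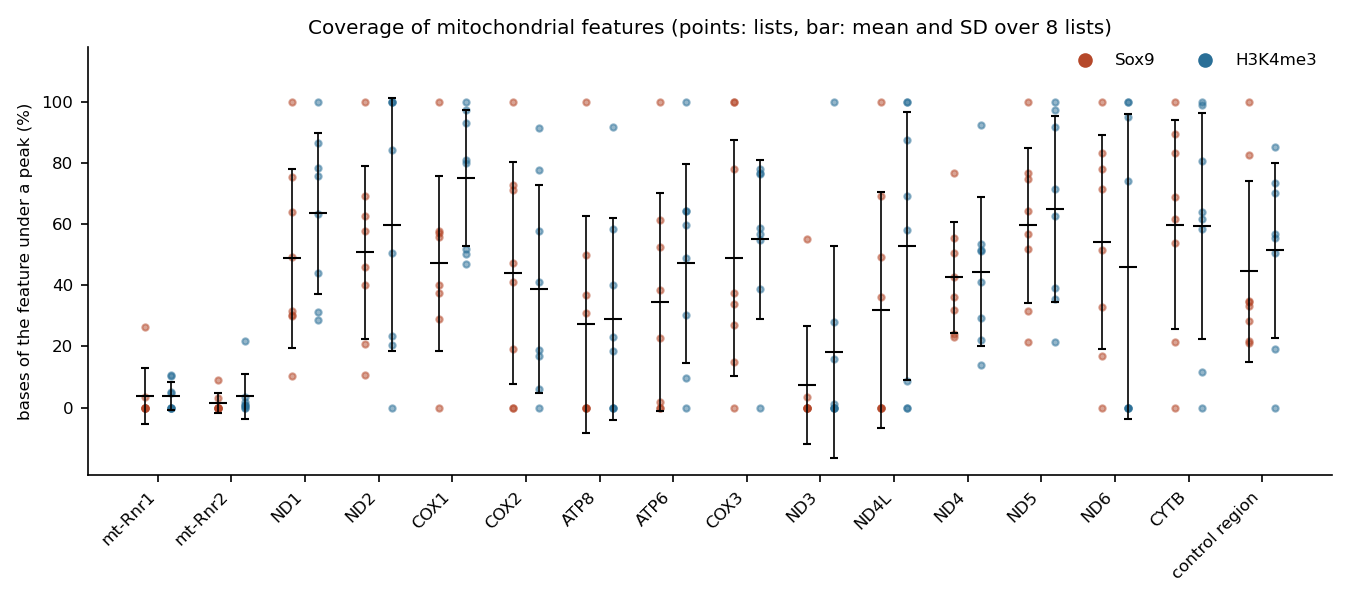
Percent of the bases of each ribosomal RNA gene, protein gene and the control region under a peak, for each Sox9 list and each H3K4me3 list (points), with mean and SD over 8 lists of each antibody. mt-Rnr1 and mt-Rnr2 average 3.72% and 1.49% in Sox9 lists and 3.86% and 3.64% in H3K4me3 lists, below every protein gene.

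Peaks of different lists overlapped widely but never coincided. No 2 lists had a peak with the same start and end, although 4 starts and 6 ends were shared to the base by 2 lists each. Merged over all lists, the 240 peaks formed 3 regions, M:5-148 with a peak in 3 lists, M:853-1372 with a peak in 5, and M:2580-16285 with peaks of all 16. Bases under a peak in at least 8 of 16 lists made up 52.4% of the mitochondrial chromosome, against 0.00344% of the nuclear bases. At least 12 lists covered 9.90% of mitochondrial bases and 0.00175% of nuclear ones, and at least 1 list covered 88.2% of mitochondrial and 3.03% of nuclear bases. With 39.3% of the bases covered in the mean Sox9 list and 47.0% in the mean H3K4me3 list, many bases are shared by several lists wherever the peaks lie, so these shares describe how much was called and are no measure of preferred sites.

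The bases shared most often lay inside genes. M:11116-11195 in ND4 was under a peak of at least 14 lists, with 34 of its bases under one in 15, from 8 Sox9 and 7 H3K4me3 lists. M:6197-6298 in COX1 was under a peak in 14 lists, 6 Sox9 and 8 H3K4me3, and M:12404-12408 in ND5 in 14, with 7 of each antibody. No base was under a peak in 16 lists. The stretches in ND4 and COX1 lie just outside M:6395-11043, which has a nuclear counterpart described below. All of these bases were picked as the most shared of the chromosome and are no measure of preferred sites.

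The overlap of 2 lists, as shared bases over bases in either, had a median of 0.343 over the 8 pairs of Sox9 and H3K4me3 lists from 1 pellet, and of 0.348 over 56 pairs of different antibody and pellet. Pairs of the same antibody and time had a median of 0.304 for Sox9 and 0.299 for H3K4me3, and pairs of different times 0.338 for Sox9 and 0.340 for H3K4me3. Single pairs ran from 0.0770 to 0.841, and pairs that share a list are not independent. This measure follows how much of the chromosome 2 lists cover: relative to the product of their coverages, the shared bases had a median ratio of 1.21 over pairs of 1 pellet, which share an input, and 1.29 over pairs of different antibody and pellet.

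Against nuclear peaks of the same list, mitochondrial peaks were wider and lower in fold enrichment. They were also denser, by a measure whose sign the short chromosome fixed in advance. The median width was 484, 298, 344.5 and 360.5 bp in Sox9 lists at 10 days, and 257, 348, 398 and 234 bp in Sox9 lists at 48 h. In H3K4me3 lists it was 348, 243, 447.5 and 232 bp at 10 days, and 271, 280, 911 and 232 bp at 48 h. Nuclear medians lay between 122 and 163 bp, below the mitochondrial median of every list. The mean difference was 198 ± 82.5 bp over the Sox9 lists and 235 ± 227 bp over the H3K4me3 lists (SD, n = 8 each; two-sided exact sign-flip permutation p = 0.00781 for each, the smallest that 8 lists allow, adjusted p = 0.00781 over 6 tests). It was positive in 8 of 8 lists of each antibody, and for H3K4me3 was 159 bp without replicate 3 at 48 h, whose median was 911 bp. Between the times, the mitochondrial medians averaged 372 ± 79.4 bp at 10 days and 309 ± 77.0 bp at 48 h for Sox9 (exact permutation p = 0.314). For H3K4me3 they averaged 318 ± 101 bp at 10 days and 424 ± 326 bp at 48 h (exact permutation p = 0.8), and the difference of -106 bp was 56.6 bp without that replicate.

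Of the 240 peaks, 70 were under 200 bp wide, 116 from 200 to under 500 bp, 38 from 500 to under 1000 bp, 6 from 1000 to under 2000 bp and 10 at least 2000 bp. The 10 widest came from 5 lists. The 2 widest both belonged to Sox9 replicate 1 at 10 days. M:2580-9610, of 7031 bp, ran from the end of mt-Rnr2 into ND3, and M:10570-16285, of 5716 bp, from ND4 through the control region. The widest H3K4me3 peak, of 3776 bp, was M:10269-14044 in replicate 3 at 48 h, over ND4, ND5 and ND6. At the other end, the narrowest peak had 92 bp.

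Peaks per megabase averaged 883 ± 359 on the mitochondrial chromosome and 10.3 ± 9.21 on the nuclear chromosomes over the Sox9 lists, and over the H3K4me3 lists 959 ± 278 on the mitochondrial and 16.2 ± 8.68 on the nuclear chromosomes. The log2 ratio of these densities, with 0.5 added to each count, was 6.71 ± 1.52 for Sox9 and 6.03 ± 0.80 for H3K4me3 (SD, n = 8 each), above 0 in 8 of 8 lists of each (exact sign-flip permutation p = 0.00781, adjusted p = 0.00781 for each). On so short a chromosome a single peak puts a list above 0. The sign of this ratio was therefore fixed once a list held any mitochondrial peak, and its test decides nothing. The chromosome is present in many copies a cell, and the reads per copy are unknown.

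Fold enrichment over background, the authors' value for each peak, ranked the mitochondrial peaks near the bottom of their lists. Of the 240, 238 had a fold below the nuclear median of their list. The mean percentile of fold within the list was 8.57, 0.945, 1.21 and 1.12 in Sox9 lists at 10 days, and 26.7, 0.479, 3.09 and 0.473 in those at 48 h. In H3K4me3 lists it was 1.56, 1.04, 1.65 and 0.936 at 10 days, and 20.2, 0.901, 5.82 and 0.348 at 48 h. Both lists of replicate 1 at 48 h were the highest of their antibody. Nuclear peaks average close to 50 by construction, and the difference was -44.7 ± 9.03 points for Sox9 and -46.0 ± 6.75 points for H3K4me3 (SD, n = 8 each), negative in 8 of 8 lists of each (exact sign-flip permutation p = 0.00781, adjusted p = 0.00781 for each). Ranked by the p-value of the peaks instead, the differences were -10.7 points for Sox9 (exact sign-flip permutation p = 0.336, adjusted p = 0.403) and -2.97 points for H3K4me3 (exact sign-flip permutation p = 0.766), and the call was lost.

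The deposited fold and p-value of a peak together fix the height at its summit and the background set against it. Solved in this way, heights came out as whole multiples of a unit particular to each list, called a step here, within 0.05 of a step for at least 99.97% of the peaks of up to 20 steps in every list and for 239 of the 240 mitochondrial peaks. Most nuclear peaks, 95.8%, were 1 step high. Mitochondrial peaks were 2 steps or higher in 87 of 115 cases in Sox9 lists, or 75.7%, against 3.39% of all Sox9 peaks. In H3K4me3 lists 104 of 125 were, or 83.2%, against 4.71% of all H3K4me3 peaks. In single lists the share was 61.1 to 100% of mitochondrial peaks and 2.21 to 7.50% of nuclear ones, with no overlap. The highest mitochondrial peaks, of 19 and 15 steps, were the 2 widest. The highest peak of every list was nuclear, at 428 to 3128 steps.

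**Figure D3:**
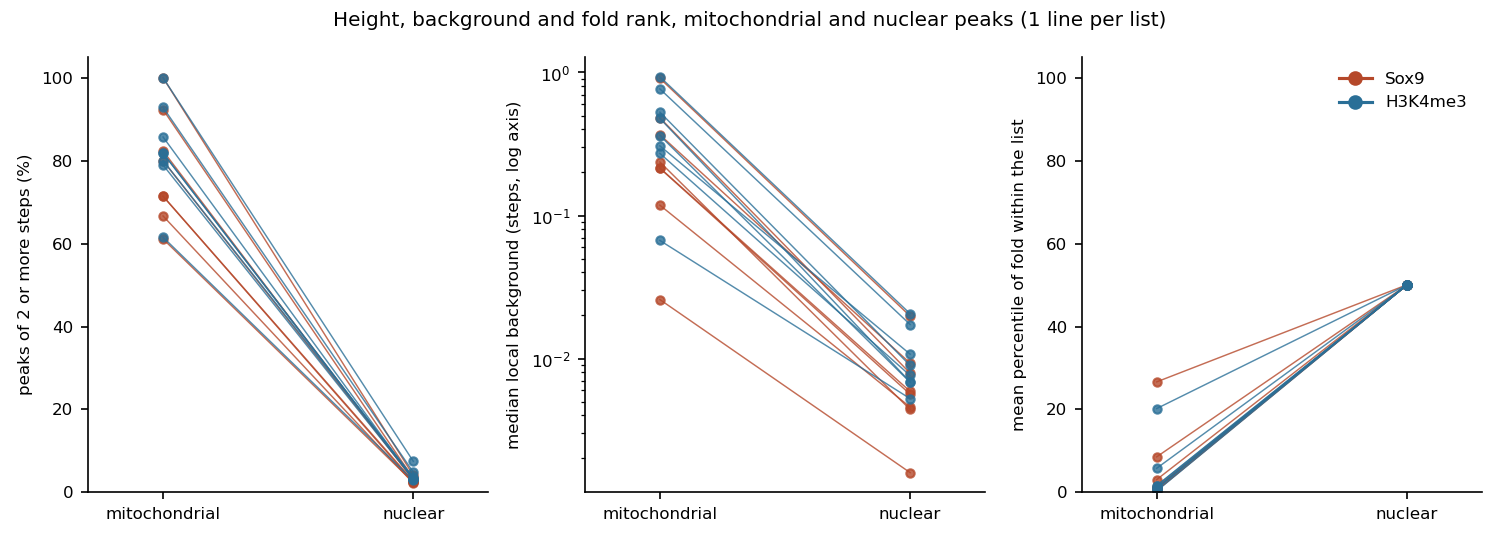
Share of peaks of 2 or more steps in percent, median local background in steps (log axis) and mean percentile of fold enrichment, for mitochondrial and nuclear peaks of each list (1 line a list, Sox9 and H3K4me3 in different colours). In all 16 lists mitochondrial peaks are more often high, lie on a higher background and rank lower in fold.

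The background beneath mitochondrial peaks was higher as well. Its median was 0.0258 to 0.933 step over the lists for mitochondrial peaks and 0.00159 to 0.0206 step for nuclear peaks, a ratio of 12.8 to 69.5 within a list. At a given height the solved background sets the fold, so the lower fold and the higher background are 1 observation. Among peaks of 1 step, the median fold was 3.84 on a background of 0.257 step for the 49 mitochondrial peaks and 43.0 on 0.0137 step for nuclear ones. Among peaks of 2 steps it was 8.48 for 74 mitochondrial peaks and 48.1 for nuclear ones. Width also differed at equal height up to 3 steps, with mitochondrial medians of 190, 258.5 and 362 bp at 1, 2 and 3 steps, against nuclear medians of 134, 178 and 225 bp. At 4 steps the median was 270 bp for mitochondrial and 268 bp for nuclear peaks, and at 5 or more steps 678 bp for mitochondrial and 325 bp for nuclear peaks. These comparisons pool peaks over lists and were not tested.

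A nuclear stretch with copies of mitochondrial genes carried peaks as well. Chromosome 1 of the mouse reference holds a nuclear copy of mitochondrial genes, with the annotated genes Gm10925 (chr1:24613971-24614651), with mt-Atp6 as a synonym and the length of ATP6, 681 bases, and Gm10222 (chr1:24612404-24612700), with the length of ND4L, 297 bases. ATP6 and ND4L lie 1270 bases apart, against 1271 between their counterparts, which stand in mirrored order. All 16 lists had peaks in a block around them, chr1:24611535-24616183, 2 to 8 a list and 82 in all, and only 1 peak of any list lay in the 5000 bp on either side. The block was drawn by joining the peaks of all lists across gaps of up to 500 bp, so its borders, its coverage and its sparse flanks follow in part from that choice. By the mirrored position of ATP6 the block of 4649 bases matches M:6395-11043, from COX1 into ND4. The match rests on gene names, lengths and positions, and the sequences were not aligned. The most shared bases in ND4 lie just past the upper border of M:6395-11043, and those in COX1 just before its lower border. A mitochondrial peak started within 100 bp of the upper border in 9 lists. Such windows held a median of 3 starts and at most 12. A mitochondrial peak ended within 100 bp of the lower border in 7 lists. Whether the borders and the shared bases are linked was not tested.

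Peaks covered 39.6 ± 23.6% of the matching mitochondrial stretch and 38.9 ± 26.3% of the chromosome 1 block (SD, n = 16), with the chromosome 1 block the higher in 8 of 16 lists. Mitochondrial bases outside this stretch and outside the ribosomal RNA genes were covered to 56.2 ± 25.6%. On the annotated genes, whose borders do not depend on the peaks, a peak lay on ATP6 in 13 of 16 lists and on Gm10925 in 12. Of the 82 chromosome 1 peaks 61.0% were 2 steps or higher. Sox9 replicate 1 at 10 days had 89.8% of the mitochondrial stretch and 96.7% of the block under peaks, and Sox9 replicate 2 at 10 days had 0% of the stretch and 13.96% of the block. Reads that fit both places equally cannot be told apart, and how the authors placed them is not given in the sources used here. Values of COX2, ATP8, ATP6, COX3, ND3 and ND4L, and of parts of COX1 and ND4, are uncertain to that extent.

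**Figure D4:**
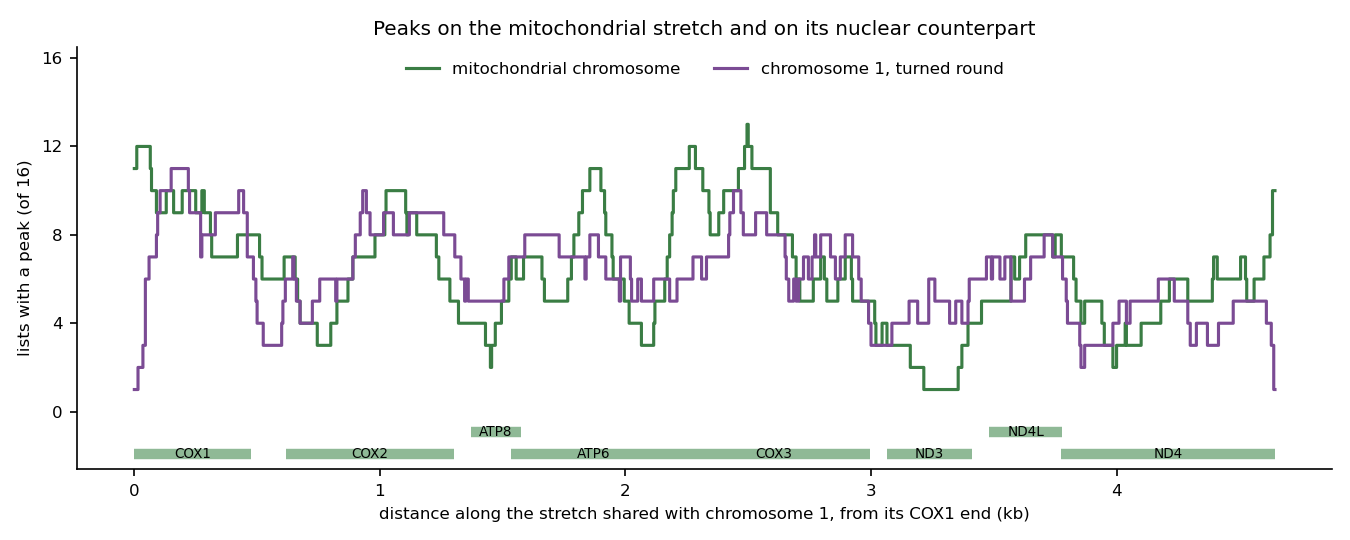
Number of lists, of 16, with a peak at each base of the mitochondrial stretch and at the matching base of the chromosome 1 block (turned round to run the same way), against the distance in kb from the COX1 end, with the mitochondrial genes drawn below. The borders of the stretch come from the chromosome 1 peaks, and peaks cover 39.6% on average on the mitochondrial chromosome, against 38.9% on chromosome 1.

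The nuclear genes that maintain mitochondrial DNA were counted as 1 list of 24, for packaging, replication, transcription and their regulation. A peak summit within 1000 bp of a gene end was found in 28 of 192 pairs of gene and Sox9 list, or 14.6%, against 9.98% of such pairs over all 21887 protein-coding genes. For H3K4me3 it was 54 of 192 pairs, or 28.1%, against 17.3% over all genes. With peaks of 2 or more steps the values were 1.56% against 0.618% for Sox9 and 7.81% against 2.94% for H3K4me3. The genes with a peak in most H3K4me3 lists were Mgme1, an exonuclease that trims replication intermediates, and Lonp1, the matrix protease that degrades TFAM, in 5 of 8 each. Tfam and Tfb2m, a transcription factor that helps the mitochondrial RNA polymerase to open the promoter, had one in 1 and 2 of 8 Sox9 lists and in 4 of 8 H3K4me3 lists each. Ppargc1a had one in 4 of 8 lists of each antibody, the most of the 24 genes for Sox9, but in 0 lists one of 2 or more steps. Polg, the replicative polymerase, had one in 1 list of each antibody. The shares of these genes were not tested against those of all genes.

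Tfam encodes the protein that packages the circle. Mgme1 was, with Lonp1, the listed gene with an H3K4me3 summit within 1000 bp of a gene end in the most lists. The promoters of Tfam and Mgme1 are shown as the nuclear counterpart to the mitochondrial peaks. Each runs from 250 bases before to 50 bases after a transcript start in RefSeq (GRCm38.p6), 5′ to 3′ on the strand of the gene. For Tfam that start lies inside the annotated gene, whose outer end, at base 71238328 of chromosome 10, is upstream of the whole window. Capitals mark bases under an H3K4me3 peak in at least 2 of 8 lists. The Tfam window is chr10:71237995-71238294 on the minus strand, and the Mgme1 window is chr2:144270654-144270953 on the plus strand.
Tfam: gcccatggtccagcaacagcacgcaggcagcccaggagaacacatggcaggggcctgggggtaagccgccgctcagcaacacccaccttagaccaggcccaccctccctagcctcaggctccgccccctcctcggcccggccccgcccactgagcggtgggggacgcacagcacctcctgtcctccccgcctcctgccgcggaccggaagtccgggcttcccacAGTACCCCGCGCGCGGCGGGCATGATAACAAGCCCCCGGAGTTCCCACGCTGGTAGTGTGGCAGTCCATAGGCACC
Mgme1: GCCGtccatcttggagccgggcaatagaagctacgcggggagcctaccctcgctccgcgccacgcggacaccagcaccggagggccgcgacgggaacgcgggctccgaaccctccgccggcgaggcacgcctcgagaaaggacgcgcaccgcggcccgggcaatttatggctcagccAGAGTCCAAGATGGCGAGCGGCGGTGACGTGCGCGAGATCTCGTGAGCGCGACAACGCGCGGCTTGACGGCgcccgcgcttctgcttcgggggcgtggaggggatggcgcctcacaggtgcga
A peak touched the Tfam window in 0 of 8 Sox9 lists and 3 of 8 H3K4me3 lists, and the Mgme1 window in 1 of 8 Sox9 lists and 4 of 8 H3K4me3 lists. The Lonp1 window drawn in the same way was touched in 0 of 8 Sox9 lists and 2 of 8 H3K4me3 lists. No base of the Tfam or Mgme1 window was under a peak in more than 2 of 8 H3K4me3 lists. The most shared bases of ND4 were under one in 7 of 8. Those were picked as the highest of a chromosome covered to 47.0% in the mean H3K4me3 list, so the values are not comparable.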

How the data were processed

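CUT&RUN peaks were called separately for each Sox9 and H3K4me3 library against the input library of the same time and number, per the peak names. Partek 10, Bowtie2, Bowtie, MACS3 and mm10 are listed in the submitters' processing notes; filters, duplicates and the threshold are not given in the sources used here. The authors deposited, for each peak, a fold enrichment (a linear ratio), the −log10 p-value and the −log10 q-value. All peaks named M were kept. Height and background were solved from fold and p-value. On 8000 peaks simulated with the same formulas every height was recovered (lowest 100% in a simulated set), and the background within 5% for at least 87.1%. This checks the solver, not whether the deposited values follow those formulas. Some mitochondrial backgrounds, such as 0.701 step at a height of 1 step, lie beyond those simulated. Group differences were tested by exact permutation, without pairing the aliquots of a pellet. Differences within lists were tested by exact sign flips (SciPy 1.17.1, Python 3.11.15). Benjamini-Hochberg adjustment was used, with calls at 0.05. All protein and ribosomal RNA genes and the control region were named by rule, the most shared regions by number of lists. Members, lists and tests were chosen with earlier results of these data known. Replicate numbers name the pellets that were split, per the labels' protocols. Deviations within a pellet had correlations of -0.144 to 0.179. The best match lay within the own pellet only for replicate 2 at 10 days. Alternatives were a q-value filter, peaks of 2 or more steps, other summaries of count, coverage, width and rank, leaving out each list, and the replicate block. Leaving out both lists of the 10 days replicate 1 pellet was added after seeing the data. Depth per library is unknown, so no counting interval is given.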

Additional observations from a re-analysis of the deposited data

Results flagged for a closer look

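Values that lay far from the other 3 lists of their group were looked for in 36 groups of 4 lists, of which chance flags about 1 in 20, and 6 were found. In H3K4me3 replicate 3 at 48 h the median width of mitochondrial peaks was 911 bp, against 232 to 280 bp in the others, and its excess over the nuclear median was 767 bp, against 97 to 143 bp. In H3K4me3 replicate 4 at 48 h 61.5% of the mitochondrial peaks were 2 steps or higher, against 78.9 to 81.8%. In Sox9 replicate 1 at 10 days the median height was 8 steps, against 2 to 3, and the mean percentile of fold was 8.57, against 0.945 to 1.21. In Sox9 replicate 1 at 48 h, the shortest list, the mean percentile of fold was 26.7, against 0.473 to 3.09.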

How the results depend on the processing

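The q-value filter changed no direction and no call among the 18 tests. With peaks of 2 or more steps the H3K4me3 differences between 10 days and 48 h turned to 0.20 in log2 count and 1.01 points in coverage. On a log2 scale the Sox9 difference in coverage between the times was -0.029, and by mean width Sox9 lists exceeded H3K4me3 lists by 111 bp. Ranked by p-value, the difference from nuclear peaks fell short of a call, at -10.7 points in Sox9 lists and -2.97 points in H3K4me3 lists. The causes were not tested. With the replicate block adjusted p was 0.750 to 1 (Sox9 count by time -0.70). Between the times it pairs different pellets that share only a number, and its 4 pairs cannot give a p below 0.125, so it says nothing of stability there. Between the antibodies it pairs aliquots of 1 pellet and gave no call. Leaving out 1 list at a time, the within-list differences passed each time (p = 0.0156, exact sign flips), though for density the sign was fixed in advance. In the same runs 5 of the 12 group differences changed direction: coverage by time, -11.9 to 7.30 points for H3K4me3 and -5.76 to 18.4 for Sox9, H3K4me3 count by time, -0.23 to 0.12, H3K4me3 width by time, -170 to 56.6 bp, and width between antibodies, -50.6 to 47.1 bp. Counted at 50% of a feature, 11 of 16 features had a count over 1.5 times lower, and by summits 6 of 16. Without both lists of the 10 days replicate 1 pellet none moved so far. Stretches of bases under a peak in at least 8 lists numbered 25, against 3 regions merged from the peaks of any list. The 2 rules differ, since a merged region needs a peak in only 1 list. Unknown depth limits every count.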
